A study of Mus musculus with 11 samples.

Results

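The microRNAs of the Dlk1-Dio3 imprinted region of mouse chromosome 12 were examined in the livers of mice with raised hepatic PGC-1β. They were chosen by number, taking every arm and letter of 49 microRNA numbers known to lie in the region, which gave 78 of the 655 probes of the chip. All 78 probes matched a hairpin between Dlk1 and Dio3 in the RefSeq annotation of GRCm38.p6, and together they covered 51 hairpins. Total liver RNA came from mice of the FVB/N strain aged 4 months and fasted overnight, 5 WT and 6 LivPGC-1β, the latter carrying a transgene for the coactivator PGC-1β in the liver. The promoter of that transgene and the sex of the mice are not given in the sources used here. Each mouse was measured on 1 array of a single Illumina microRNA BeadChip. WT mice took the first 5 positions of the chip and LivPGC-1β mice the last 6, so position and genotype run together.

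The Dlk1-Dio3 region is imprinted, which means that the maternal and paternal copies are read differently. The paternal copy gives the protein-coding genes Dlk1, Rtl1 and Dio3, and the maternal copy gives the non-coding RNAs Meg3, Rian and Mirg, from whose long transcripts the microRNAs are cut. The microRNAs are abundant in the embryo, the placenta and the brain, and mice that lack the stretch from miR-379 to miR-410 adapt poorly to fasting after birth. PGC-1β is a transcriptional coactivator of mitochondrial and lipid genes, and whether its overexpression in liver comes with a shift of these microRNAs is the comparison that the arrays allow.

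The mature sequences that the results turn on are shown 5′ to 3′ as RefSeq gives them with GRCm38.p6, with the seed (bases 2 to 8, which pair with the target) in capitals. A mature sequence was matched for 61 of the 78 probes, 24 from an arm in the probe's name and 37 from the arm that usually carries that name. The first 5 belong to hairpins within Meg3 or antisense to Rtl1. There 7 of 11 tested differences lay above 0 and 4 below, while 46.5% of all probes tested lay below 0.
miR-770-5p: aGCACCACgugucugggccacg
miR-127: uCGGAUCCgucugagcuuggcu
miR-434-5p: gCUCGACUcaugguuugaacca
miR-434-3p: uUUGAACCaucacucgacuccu
miR-136: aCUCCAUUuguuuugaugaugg
The next group comes from the stretch from miR-379 to miR-410, where most differences lay below 0, and holds the related pairs miR-379 with miR-411 and miR-376b with miR-376a.
miR-379: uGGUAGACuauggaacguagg
miR-411: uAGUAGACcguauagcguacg
miR-376b: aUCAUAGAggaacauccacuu
miR-376a: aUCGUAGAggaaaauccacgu
miR-376b*: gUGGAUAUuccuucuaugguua
miR-376c*: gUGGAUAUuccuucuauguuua
miR-154: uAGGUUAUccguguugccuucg
miR-154*: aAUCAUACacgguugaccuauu
The last group was far higher in 1 mouse than in all others (miR-654-3p and miR-453) or spread widely among the LivPGC-1β mice (miR-668).
miR-654-3p: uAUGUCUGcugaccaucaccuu
miR-453: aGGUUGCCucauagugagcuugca
miR-668: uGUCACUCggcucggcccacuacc

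A probe counted as detected where its detection p did not exceed 0.01, and it was tested where at least 5 of the 11 arrays detected it. By that rule 52 of the 78 cluster probes (66.7%) were tested, beside 493 of all 655 (75.3%). On all 11 arrays 41 cluster probes were detected. On no array were 19 detected (24.4%, against 15.3% of all probes): miR-770-3p, miR-673-3p, miR-540-5p, miR-431, miR-431*, miR-433, miR-433*, miR-370, miR-882, miR-380-3p, miR-380-5p, miR-543, miR-376c*, miR-300, miR-300*, miR-544, miR-485, miR-412 and a second miR-412 probe. The remaining 7 were detected on 1 to 4 arrays. The number of cluster probes detected per mouse ran from 48 to 52 in WT and from 43 to 54 in LivPGC-1β, so the ranges overlapped. Among the 52 tested, 18 had a median within 0.5 of the detection floor on the log2 scale, and their differences are measured over little room. Throughout, levels are log2 quantile-normalized intensity, differences are LivPGC-1β minus WT on the log2 scale, and levels of different probes are not set against each other. Arrays carry no counts, so their number limits the precision. In whole liver, fewer cells that make a microRNA and less of it per cell cannot be told apart.

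Hepatocyte, neuron and other cell type lists were read on the same arrays. The 6 hepatocyte microRNAs, miR-122 among them, were all tested, with a median deviation from the probe mean between −0.03 and 0.02 in every mouse. Of 13 neuronal microRNAs 11 were tested. Their median deviation ran from −0.19 to 0.06 in WT and from −0.06 to 0.08 in LivPGC-1β. Detected on every array were miR-128, miR-137, miR-138, miR-129-3p, miR-129-5p, miR-132, miR-212, miR-219 and miR-218. miR-153 was detected in every LivPGC-1β mouse and in no WT mouse. miR-9 was detected in most mice, miR-9* in LivPGC-1β 2 alone, and miR-124, a defining neuronal microRNA, in none. The 3 tested skeletal muscle microRNAs stood at a median of 4.09 in WT 1 and 1.49 in LivPGC-1β 4 and at −0.09 or lower in the other mice. The 14 tested microRNAs of the X-linked testis cluster stood at 1.32 in WT 3 and between −0.25 and −0.01 in the other mice. Bile duct microRNAs stood at 0.60 in LivPGC-1β 1 and −0.36 in LivPGC-1β 4, and pancreatic ones at 0.52 in LivPGC-1β 1. Blood and endothelial lists stayed between −0.11 and 0.11 in every mouse. Quantile normalization gives equal ranks equal values on every array. The blood median was 0.00 in WT 3, WT 4, LivPGC-1β 1 and LivPGC-1β 6. A narrow range for these lists or the hepatocyte list therefore does not show equal cell content. Of 6 stellate cell and fibroblast microRNAs listed, 4 were matched by name to a probe and tested. Their median ran from −0.125 to 0.006 in WT and from 0.010 to 0.084 in LivPGC-1β. These ranges of the list median did not overlap, where groups did not overlap for 4.67% of all single probes tested. A joint probe for miR-199a-3p and miR-199b, detected on every array, did not match by name and was left out. At an unadjusted p of 0.05 in limma 2 of the 4 were higher and 0 lower, beside 10.1% higher and 2.43% lower over all probes.

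No cluster microRNA passed an adjusted p of 0.05 in limma between LivPGC-1β and WT livers (0 of 52), where 10 of the 493 probes tested did (2.03%; 1.62% higher and 0.406% lower in LivPGC-1β). At an unadjusted p of 0.05 the limma fit gave 1 higher, miR-770-5p, and 1 lower, miR-379, beside 10.1% higher and 2.43% lower over all probes. Groups that did not overlap were found for 0 of the 52, beside 4.67% of all probes. Still, 40 of the 52 fitted differences (76.9%) lay below 0, against 46.5% of all probes. Their median was −0.06, against 0.01 over all probes, and their median size without sign was 0.105 against 0.0845. The p-values measure the spread between these 11 mice.

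**Figure D1:**
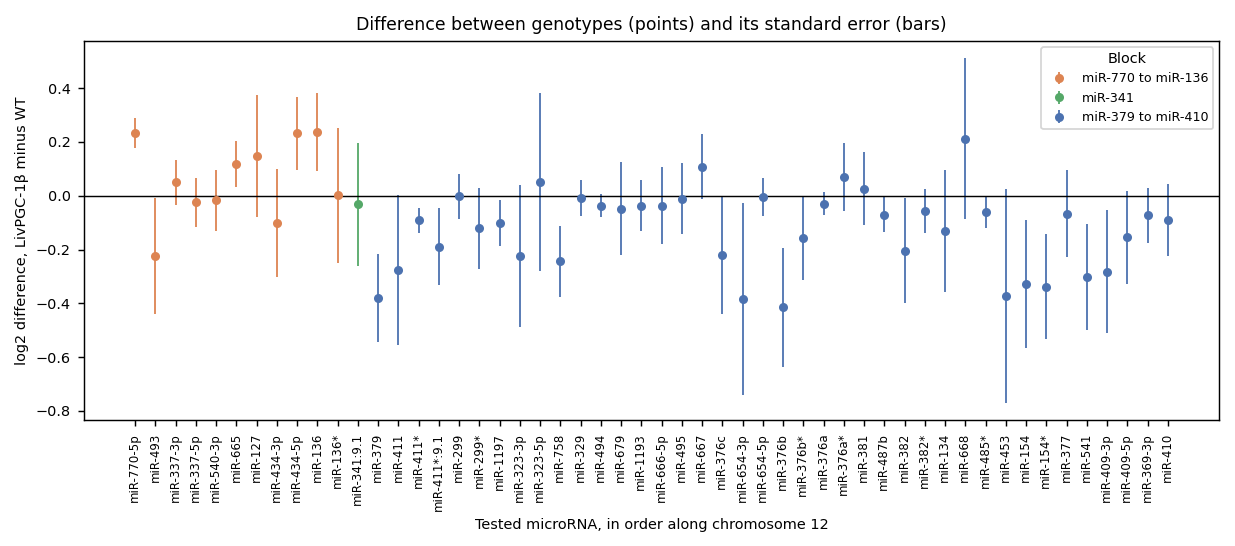
Difference between LivPGC-1β (6 mice) and WT (5 mice) on the log2 scale for each of the 52 tested microRNAs, in order along chromosome 12, with bars of 1 standard error. Most of the miR-379 to miR-410 block lies below 0, with 35 of 40 points, while 7 of 11 in the miR-770 to miR-136 block lie above 0. Over all probes tested 46.5% lay below 0.

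Mice differed more for these microRNAs than for probes in general. The range over the 11 mice had a median of 0.80 for the cluster and 0.53 for all probes tested. The SD had a median of 0.24 in WT and 0.20 in LivPGC-1β for the cluster, against 0.15 and 0.12 over all probes. The narrowest range was 0.17, for miR-494, and the widest 2.39, for miR-453.

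Along the chromosome the hairpins fell into 4 blocks where a gap of over 10 kb was taken as a boundary. The first, from miR-770 to miR-136 (chr12:109563692-109595388, GRCm38.p6), holds 11 hairpins within Meg3 or antisense to Rtl1. The second holds miR-341 and miR-370, both within Rian. The third is miR-882 alone, which was not detected on any array. The fourth, from miR-379 to miR-410 (chr12:109709060-109743795), holds 37 hairpins, of which the last 9 lie inside Mirg.

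In the first block 11 of 20 probes were tested, and the median difference was 0.05, with 7 above 0 and 4 below. Among the 7 was miR-136* at 0.0009. Over all probes tested 46.5% lay below 0. In the block from miR-379 to miR-410, 40 of 54 probes were tested, with 5 above 0, 35 below and a median of −0.09. The 5 above 0 there, picked out after their values were seen, were miR-668 at 0.21, miR-667 at 0.11, miR-376a* at 0.07, miR-323-5p at 0.05 and miR-381 at 0.03, each smaller than its standard error. The 9 tested probes inside Mirg all lay below 0, with a median of −0.28, and the 31 outside Mirg had a median of −0.06, with 26 below 0. Of the 9 inside Mirg, 6 were highest in WT 3. Another, miR-453, lay near the detection floor, and its difference of −0.37 was 0.09 without WT 5. These counts describe neighbours cut from shared transcripts, so the probes of a block do not stand for separate samples.

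With each mouse left out in turn the median of the miR-379 to miR-410 block ran from −0.12 to −0.05 and that of the first block from 0.02 to 0.13. Leaving out WT 1, WT 3, WT 5 and LivPGC-1β 4 together, the mice named above for muscle or testis microRNAs with WT 5 added, gave 0.03 and 0.25. That choice keeps 2 WT mice, WT 2 and WT 4, which are the lowest WT mice for the cluster, and drops the lowest LivPGC-1β mouse, so it moves the medians up by its construction. Without normalization the medians were −0.29 and −0.13, where the median of all probes was itself −0.14. With chip position as a covariate the first block stood at −0.04, with 4 differences above 0 and 7 below. Without normalization 2 of its differences lay above 0 and 9 below.

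**Figure D2:**
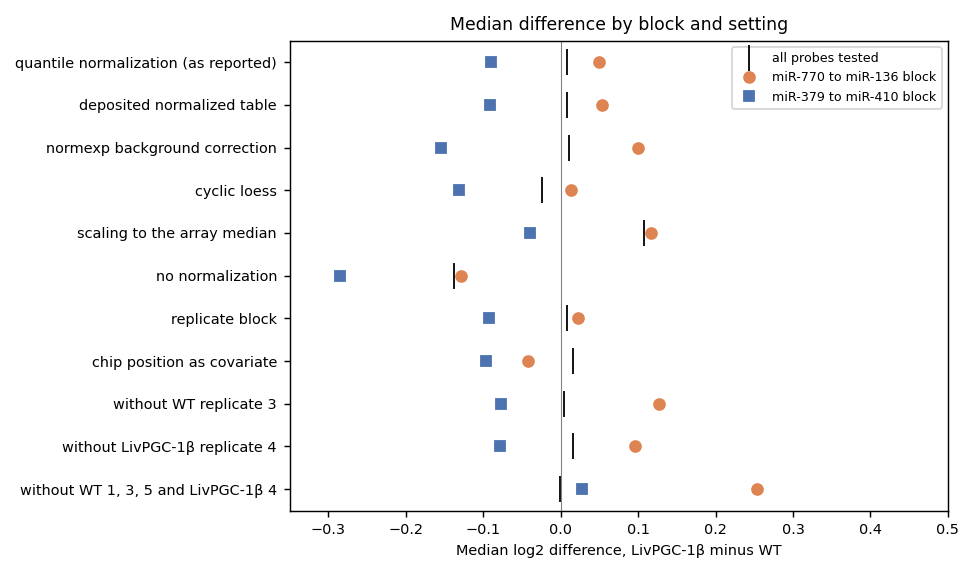
Median log2 difference (LivPGC-1β minus WT) of the miR-770 to miR-136 block (circles), the miR-379 to miR-410 block (squares) and all probes tested (ticks) under each setting on the vertical axis. The squares lie left of 0 in every setting drawn but the one without WT 1, 3, 5 and LivPGC-1β 4 (0.03), which keeps the 2 WT mice lowest for the cluster.

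miR-770-5p, cut from a hairpin inside Meg3, was the member nearest to the adjusted threshold. Its level was 12.59, 12.67, 12.62, 12.66 and 12.89 in WT 1 to 5. In LivPGC-1β 1 to 6 it was 12.85, 12.88, 12.89, 12.92, 12.96 and 13.00. Every LivPGC-1β mouse lay above 4 of the WT mice, but WT 5 stood within the LivPGC-1β range, and 3 of 6 LivPGC-1β mice lay above every WT mouse. The difference was 0.23 (SE 0.055), or 1.18-fold higher, with a limma p of 0.0016 and an adjusted p of 0.055. The two-sided exact permutation test gave 0.0087, where the smallest value that 462 splits allow is 0.0022. Without WT 5 the difference was 0.28 and the limma adjusted p 0.0045. With any other single mouse left out the limma adjusted p ran from 0.071 to 0.154. Without normalization the difference was 0.07 (SE 0.086, limma adjusted p = 0.603), where the median of all probes was −0.14. Once chip position entered the fit the difference was 0.01 (SE 0.079, limma adjusted p = 0.988), so genotype and position cannot be told apart for it. The other arm, miR-770-3p, was detected on no array.

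The remaining hairpins of the first block lie antisense to Rtl1, the gene of a retrotransposon-derived protein of the placenta, whose transcript miR-127 and miR-136 are known to pair with in full. miR-136 was measured at 8.80, 8.67, 9.19, 8.85 and 8.82 in WT and at 9.39, 9.12, 9.03, 8.58, 9.36 and 9.16 in LivPGC-1β. The highest mice were LivPGC-1β 1 and 5 and the lowest was LivPGC-1β 4, so the LivPGC-1β range enclosed that of WT. The difference of 0.24 (SE 0.145) did not pass in limma (adjusted p = 0.503). The opposite arm, miR-136*, differed by 0.00 (SE 0.249), and its sign depends on the setting.

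miR-434-5p stood at 9.12, 8.95, 9.33, 9.31 and 9.42 in WT and at 9.75, 9.27, 9.27, 9.17, 9.48 and 9.81 in LivPGC-1β. LivPGC-1β 1, 5 and 6 lay above every WT mouse and the other three within the WT range. Its difference was 0.23 (SE 0.135, limma adjusted p = 0.492), and it turned to −0.03 without normalization and to −0.04 with chip position as a covariate. For miR-434-3p, from the same hairpin, the difference was −0.10 (SE 0.202), with WT 3 highest at 11.17 and LivPGC-1β 4 lowest at 9.90, and it turned to 0.07 without WT 3.

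miR-127, the best known microRNA of the block, was at 10.28, 10.10, 10.79, 10.02 and 10.22 in WT and at 10.81, 10.51, 9.96, 9.75, 10.77 and 10.77 in LivPGC-1β. The mice fell apart within the genotype, with LivPGC-1β 1, 5 and 6 near WT 3 at the top and LivPGC-1β 3 and 4 below every WT mouse. The difference was 0.15 (SE 0.228, limma adjusted p = 0.810), and −0.10 without normalization. It ran from 0.07 without LivPGC-1β 1 to 0.28 without LivPGC-1β 4. miR-127* was detected in 0 of 5 WT and in 2 of 6 LivPGC-1β mice, with levels from 8.24 to 8.37 in WT and up to 8.52 in LivPGC-1β, too close to the floor for a fold.

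miR-379, the first hairpin of the largest block, is known in mouse liver as a microRNA raised by glucocorticoid hormone. Its level was 12.17, 11.66, 12.45, 11.77 and 11.91 in WT and 11.91, 11.62, 11.30, 11.30, 11.83 and 11.71 in LivPGC-1β. WT 3 and WT 1 stood above every other mouse and LivPGC-1β 3 and 4 were lowest, while the rest overlapped. The difference of −0.38 (SE 0.164), or 1.30-fold lower in LivPGC-1β, had a limma p of 0.043 and an adjusted p of 0.366, and the two-sided exact permutation test gave 0.069. It was −0.27 without WT 3. Its relative miR-411, which shares 14 of 21 positions and 6 of 7 seed positions with it, differed by −0.28 (SE 0.278).

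The miR-376 hairpins lie close together and are known targets of RNA editing in mouse tissues. miR-376b was at 12.47, 11.83, 13.00, 12.33 and 12.57 in WT and at 12.31, 11.89, 11.68, 11.59, 12.22 and 12.47 in LivPGC-1β. WT 3 was the highest mouse and LivPGC-1β 4 the lowest, and WT 2 lay among the low LivPGC-1β mice. The difference was −0.41 (SE 0.221, limma adjusted p = 0.445), 1.33-fold lower, and −0.27 without WT 3. miR-376a, identical to it at 18 of 21 positions but with another seed, ranged over 0.23 in the 11 mice and differed by −0.03 (SE 0.043). The arm miR-376b* differed by −0.16 (SE 0.154) with the same highest and lowest mouse as miR-376b. It is the single tested member of the seed UGGAUAU, which among the matched arms it shares with miR-376c* alone, and miR-376c* was not detected.

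Inside Mirg, both arms of miR-154 were measured. miR-154 was at 10.83, 10.75, 11.41, 10.88 and 11.25 in WT and at 11.03, 10.70, 10.24, 9.96, 11.05 and 11.19 in LivPGC-1β. miR-154* was at 9.49, 9.18, 10.03, 9.42 and 9.66 in WT and at 9.36, 8.97, 9.07, 8.77, 9.32 and 9.82 in LivPGC-1β. Both arms were highest in WT 3 and lowest in LivPGC-1β 4, and the groups overlapped. The differences were −0.33 (SE 0.237, limma adjusted p = 0.573) and −0.34 (SE 0.197, limma adjusted p = 0.492). Without LivPGC-1β 4 the first was −0.18.

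**Figure D3:**
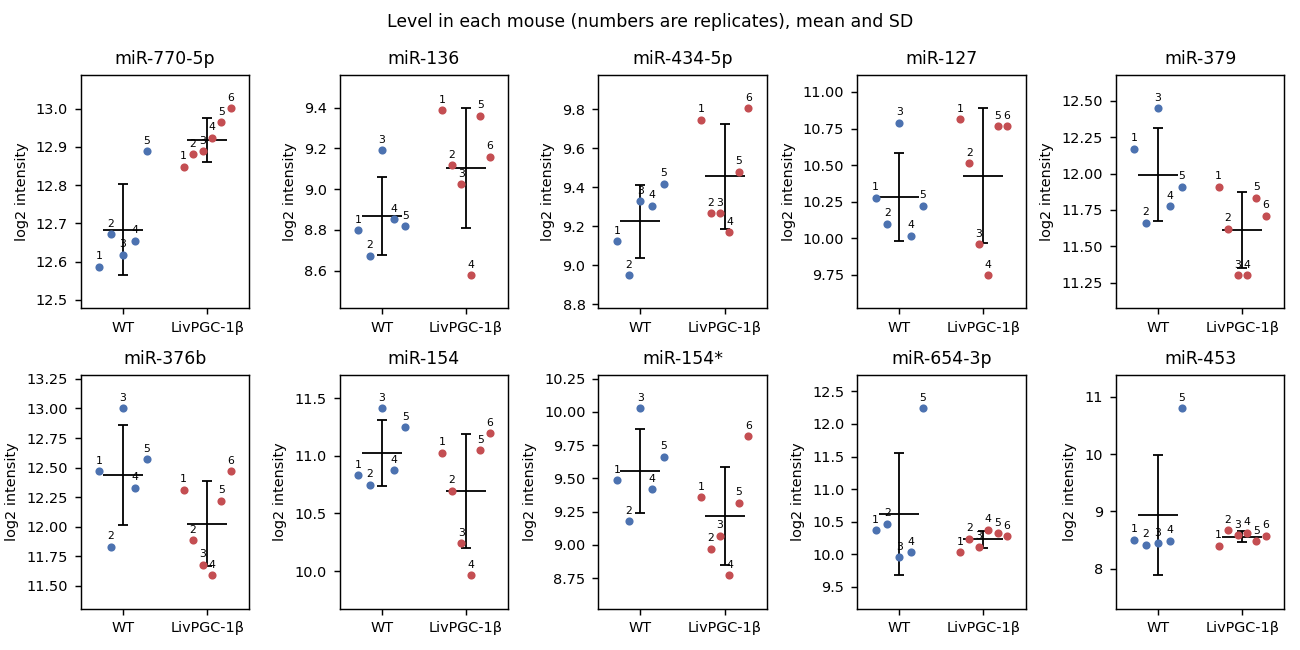
Level of 10 cluster microRNAs in each mouse (log2 intensity, with an axis of its own for each microRNA), numbered by replicate, with the mean and SD of WT (5 mice) and LivPGC-1β (6 mice). WT 3 is highest for miR-379, miR-376b and both arms of miR-154, and WT 5 stands alone for miR-654-3p at 12.24 and miR-453 at 10.80.

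A few members were set by 1 mouse. miR-654-3p was at 12.24 in WT 5 and between 9.96 and 10.47 in the other 10 mice. Its difference of −0.38 (SE 0.358, limma adjusted p = 0.662) became 0.02 without WT 5, and the other arm, miR-654-5p, differed by 0.00 (SE 0.069). miR-453 was at 10.80 in WT 5 and at 8.68 or lower elsewhere, so that its difference went from −0.37 (SE 0.398, limma adjusted p = 0.699) to 0.09 without that mouse. miR-341 was detected in WT 5 alone, at 9.75, with the other mice at 8.25 or lower. miR-654-3p, miR-453 and miR-341 were singled out because 1 mouse lay over 1 log2 above the next, and for a second miR-341 probe WT 5 was the lowest mouse, at 10.16.

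miR-668 differed in another way, with the spread within LivPGC-1β. Its level was 10.13, 9.91, 9.77, 9.88 and 10.29 in WT and 9.99, 10.67, 10.53, 11.11, 9.64 and 9.29 in LivPGC-1β. LivPGC-1β 2, 3 and 4 lay above every WT mouse and LivPGC-1β 5 and 6 below, although LivPGC-1β 3 and 4 were the lowest mice for many other cluster microRNAs. The difference was 0.21 (SE 0.300, limma adjusted p = 0.789). It was 0.03 without LivPGC-1β 4 and 0.39 without LivPGC-1β 6.

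Some hairpins have more than 1 probe for an arm, where the file gives the second name a suffix that the sources used here do not explain. The plain miR-411* probe was detected on 5 arrays and the suffixed one on all 11, with differences of −0.09 (SE 0.046) and −0.19 (SE 0.143). For miR-341 the suffixed probe was detected on all 11 arrays, ran from 10.16 to 11.35 and differed by −0.03 (SE 0.228), while the plain one was detected on 1. Which of 2 such probes reads the mature microRNA is not known here.

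Of the 12 hairpins with both arms tested, the arms had differences of the same sign in 8. Some of the 8 rest on an arm close to 0, such as miR-136* (0.0009), miR-299 (−0.003) and miR-654-5p (−0.005). With 76.9% of all tested members below 0, many pairs would share a sign anyway, so the count does not show that arms go together. The 2 arms shared the highest mouse in 2 hairpins and the lowest mouse in 5. miR-376b and miR-154 shared both.

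Single mice stood out over the cluster as a whole. WT 3 was the highest mouse for 19 of the 52 microRNAs (36.5%), against 9.74% of all probes tested. LivPGC-1β 4 was the lowest for 23 (44.2%), against 18.3% of all probes, and LivPGC-1β 3 for 8 (15.4%, against 4.46%). A tie is counted for the mouse that comes first, which gives miR-379 to LivPGC-1β 3 although LivPGC-1β 4 had the same level, so that LivPGC-1β 4 was lowest for 24 with the tie. The median deviation of the cluster was 0.10 in WT 3, −0.23 in LivPGC-1β 4 and −0.17 in LivPGC-1β 3, while that of all probes lay between −0.07 and 0.03 in every mouse. Within the genotypes the cluster median ran from −0.14 in WT 2 to 0.10 in WT 3 and from −0.23 in LivPGC-1β 4 to 0.15 in LivPGC-1β 6, so each genotype held mice high and low for the cluster.

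**Figure D4:**
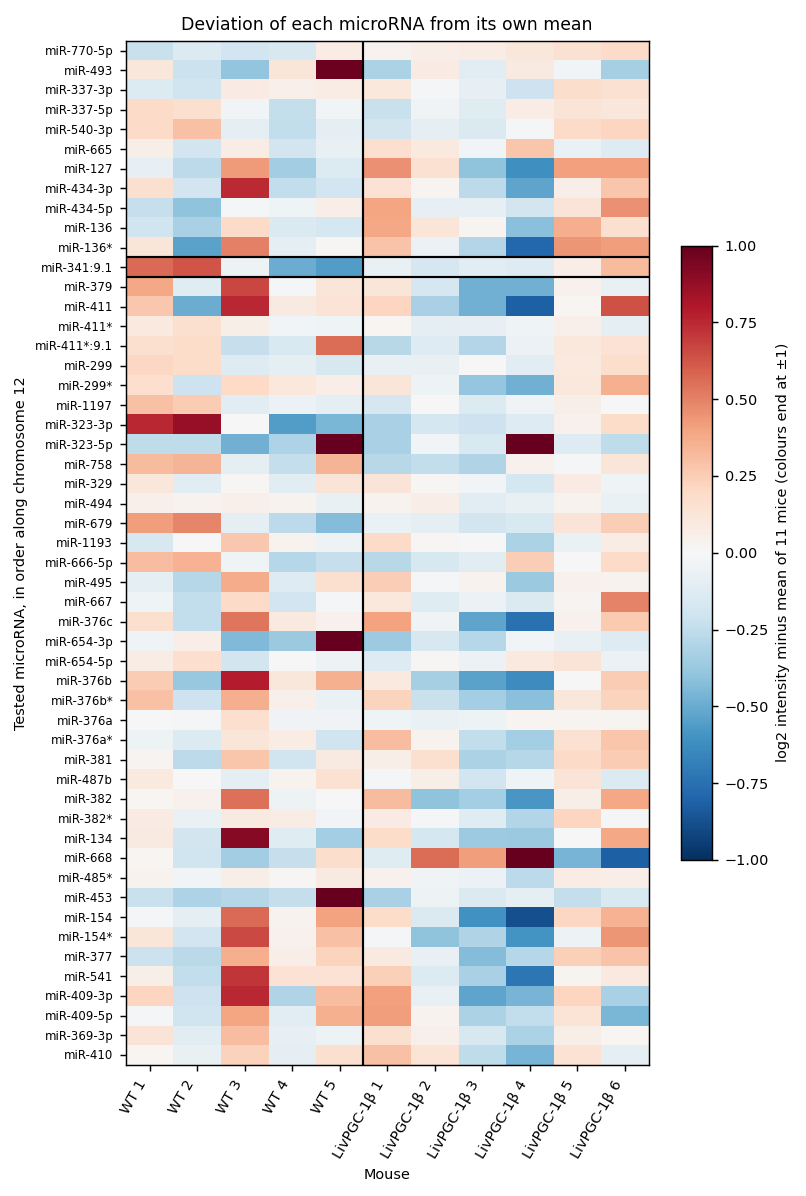
Deviation of each of the 52 tested microRNAs (rows, in order along chromosome 12, black lines between blocks) from its own mean over 11 mice (columns), on the log2 scale with colours ending at ±1. WT 3 is red and LivPGC-1β 3 and 4 are blue over most of the lower block, while a smaller set is red in WT 1 and WT 2.

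The 19 microRNAs highest in WT 3 were largely the ones lowest in LivPGC-1β 3 or 4. Of these 19, 18 had their lowest level in LivPGC-1β 3 or 4, and 14 in LivPGC-1β 4, or 15 with the tie for miR-379. They lay in the miR-379 to miR-410 block in 17 cases and were, by name, miR-379, miR-411, miR-1193, miR-495, miR-376c, miR-376b, miR-376b*, miR-376a, miR-381, miR-382, miR-134, miR-154, miR-154*, miR-377, miR-541, miR-409-3p and miR-369-3p, with miR-434-3p and miR-136* from the first block. miR-134, which limits the size of dendritic spines in neurons, was at 11.19 in WT 3 and between 9.91 and 10.67 in the other mice. Another 11, miR-323-3p and miR-679 among them, were highest in WT 1 or WT 2 (miR-758 in a tie of WT 2 with WT 5), and none of the 11 was lowest in LivPGC-1β 4. The sets were formed from the same levels they describe and carry no test. WT 3 was also the mouse with the X-linked testis cluster at 1.32, and LivPGC-1β 4 one of the mice with raised muscle microRNAs (1.49). WT 1, with muscle microRNAs at 4.09, had a cluster median deviation of 0.09. LivPGC-1β 3, with a cluster median deviation of −0.17, had muscle microRNAs at −0.68. The part of the testis and muscle microRNAs in the pattern was not tested.

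**Figure D5:**
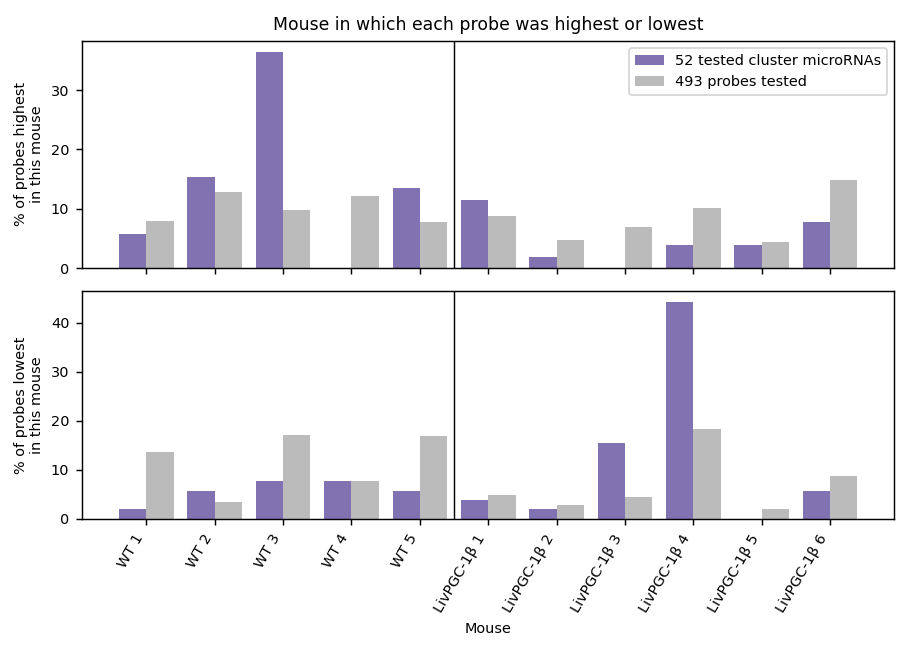
Percent of the 52 tested cluster microRNAs (purple bars) and of all 493 probes tested (grey bars) that were highest (upper panel) or lowest (lower panel) in each mouse. The cluster bar reaches 36.5% for WT 3 in the upper panel and 44.2% for LivPGC-1β 4 in the lower one.

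Other microRNA groups with a shared genomic home were read in the same fit, where 10.1% of all probes were higher and 2.43% lower at an unadjusted p of 0.05. Of 43 microRNAs of the intron cluster of Sfmbt2, an imprinted gene, 28 were tested, 0 passed the adjusted threshold in limma, 3 were higher and 0 lower at an unadjusted p of 0.05, and the median difference was 0.08. Of 26 of the X-linked testis cluster 14 were tested, with 0 past either threshold in limma and a median of −0.35, WT 3 being the highest mouse at 1.32. For chromosome 12 outside the region, 6 probes of miR-345, miR-342 and miR-203 alone were listed, which do not stand for the rest of the chromosome. Of these, 1 was higher at the adjusted threshold (1.62% of all probes were) and 3 at the unadjusted one. Their median was 0.21. No test compared these lists with the Dlk1-Dio3 cluster.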

How the data were processed

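Liver RNA of 5 WT and 6 LivPGC-1β mice was measured, 1 array per mouse. The authors deposited bead intensity values from Genome Studio, neither normalized nor background subtracted, with a detection p-value for each of 655 probes per array, and a quantile-normalized intensity table, used as an alternative. The Genome Studio version was not given in the sources used here. Intensities were quantile normalized and log2 transformed here, as the study's methods state. The 493 probes whose detection p did not exceed 0.01 on 5 or more of the 11 arrays were fitted with limma 3.58.1 in R 4.3.3, with Benjamini-Hochberg adjustment over the 493 and a threshold of 0.05. The fit was tested on simulated data. Single microRNAs also had a two-sided exact permutation test over 462 splits. Figures were drawn with Python 3.11.15.

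Groups came from the sample titles. Replicate numbers recur in both genotypes, and the titles do not say whether mice of the same number share a litter or a day. The members and lists were chosen with earlier results of these data known. Named were members past either threshold, the 5 largest differences in each direction, members over 1 log2 higher in 1 mouse than in the next, members detected in 1 genotype alone on at least 2 arrays, and their other arms or seed mates. Some others were named after their values were seen: the undetected probes, miR-411 with its star arm probes, miR-376a, miR-494, the members above 0 in the largest block and those grouped by highest mouse. Names and positions come from RefSeq (GRCm38.p6); the probe table gives chromosome 12 for 75 of the 78 probes and 0 for the 3 with a suffix. Alternatives covered normalization, background, detection filter, variance model, replicate block, chip position and mice left out.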

Additional observations from a re-analysis of the deposited data

Results flagged for a closer look

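Among 40 sets of 5 or 6 mice checked for a mouse that lay far from the rest of its genotype, 6 were picked out. Chance gives about 1 in 20 sets, but miR-341, miR-654-3p and miR-453 were named because 1 mouse lay far above the next, so their part of the 6 was fixed by that choice and the count is no test. WT 5 was the mouse in 5 of them. It stood at 12.89 for miR-770-5p, 12.24 for miR-654-3p, 10.80 for miR-453, 9.75 for miR-341 and 8.44 for miR-770-3p, above the other WT mice each time. miR-770-3p was not detected in any mouse, WT 5 included. LivPGC-1β 4 stood at 8.25 for miR-341, above the other LivPGC-1β mice, and was not detected there.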

How the results depend on the processing

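Of the 399 values of 16 named microRNAs under the other settings, 395 kept their side of the threshold, and 33 of differences that did not pass changed sign. The other 4 were all miR-770-5p, which passed in limma with probes detected on every array (0.23, adjusted p = 0.0462), with an intensity trend (0.23, 0.0444), with array weights (0.25, 0.0216) and without WT 5 (0.28, 0.0045); over all alternatives its adjusted p ran from 0.0045 to 0.988. The number of cluster microRNAs past the adjusted threshold was accordingly 1 under these settings, and 0 to 1 with each mouse left out. Over all probes 14 of 431, then 12, 13 and 10 of 493 passed under these settings, in the same order. At an unadjusted p of 0.05 the cluster count, 2 of 52 as reported, was 12 without normalization (all lower). Over all 493 probes 80 were lower and 6 higher there. With cyclic loess it was 5 (1 higher, 4 lower), beside 38 higher and 44 lower over all probes. Without a detection filter it was 5 of 78, beside 60 higher and 18 lower of 655. Array weights gave 4, beside 53 higher and 18 lower. Chip position as a covariate gave 0, beside 23 higher and 12 lower. Without WT 1, 3, 5 and LivPGC-1β 4 it was 4 (all higher), beside 31 higher and 32 lower. The cluster count ran from 1 to 4 with each mouse left out, at 1 without WT 1, WT 3, LivPGC-1β 2 or LivPGC-1β 3 and at 4 without WT 4. Over all 493 probes, 37 to 62 were then higher and 9 to 17 lower. The median difference was −0.27 without normalization, where that of all probes was −0.14, and 0.05 without WT 1, 3, 5 and LivPGC-1β 4. The setting without those 4 mice keeps 2 WT mice, the lowest of WT for the cluster, and moves values up by its construction. With median scaling it was −0.02, where all probes shifted by 0.11. With each mouse left out it ran from −0.11 to −0.03. The causes were not tested. With the replicate number as a block, over the numbers both genotypes have, 0 cluster microRNAs passed, 2 passed unadjusted and the median was −0.08. Unadjusted, 37 of all 493 probes were higher and 11 lower there. Adjusted calls over all probes went from 10 to 1. Deviations of same-numbered mice correlated between −0.13 and 0.07, which cannot show whether such mice share a litter or a day. The 18 members near the detection floor limit what small differences can show.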
